A study of Homo sapiens with 4 samples.

Results

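Genes of the Wnt signalling pathway were followed in SK-N-BE(2) cells, a long-established line grown from a human neuroblastoma, after knockdown of the RNA-binding protein IGF2BP3. The genes were those rows of the deposited count table whose protein-coding symbol is a Wnt ligand (WNT), a Frizzled receptor (FZD), a Dickkopf (DKK1 to DKK4) or secreted Frizzled-related protein (SFRP), an R-spondin receptor (LGR4 to LGR6) or an axin. LRP5, LRP6, ROR1, ROR2, RYK, WIF1, RNF43, ZNRF3, CTNNB1, APC, LEF1, TCF7, TCF7L1 and TCF7L2 were added by name. The rule found 56 genes among 64252 in the table, of which 19657 are annotated as protein-coding. The cells carried either a hairpin directed at IGF2BP3 (shIGF2BP3, 2 libraries) or a control one (shControl, 2 libraries), with no other treatment named. The labels give no time after transfection and no number of hairpins or clones, so an effect of IGF2BP3 loss cannot be told apart from one of the hairpin used. They do not say either whether replicates were separate cultures, and p-values then cover the spread among the 4 libraries alone, which may be technical.

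Wnt proteins are secreted lipid-modified ligands that bind Frizzled receptors together with the co-receptors LRP5 and LRP6. In the absence of ligand a complex built on APC and axin marks beta-catenin, encoded by CTNNB1, for destruction, and ligand binding lets beta-catenin reach the nucleus and act with TCF/LEF factors on target genes. Secreted antagonists of the SFRP and DKK families limit the pathway outside the cell, and ROR1, ROR2 and RYK serve branches that do not use beta-catenin. Wnt signals act on the neural crest, from which neuroblastoma arises.

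Total counts lay between 26755695 and 31946756 per library. IGF2BP3 had 28.7 and 31.89 CPM (counts divided by the TMM-scaled size of the library) in the shIGF2BP3 libraries, against 156.5 and 138.9 CPM in the shControl libraries. It fell by 2.28 on the log2 scale (SE 0.09), with an adjusted p of 1.66e-12. All adjusted p-values given here are Benjamini-Hochberg values from the quasi-likelihood test of edgeR over 19767 genes. All 11 adrenergic neuroblastoma markers were detected, with summed levels of 5955 to 6361 CPM in shIGF2BP3 and 7900 to 8200 CPM in shControl. Of 10 fibroblast markers FAP was at 0 in every library, and the sum was 1040 to 1056 CPM in shIGF2BP3 against 831.0 to 865.5 CPM in shControl. The Schwann cell list held SOX10 and CDH19 at 0 and summed to 9.44 to 9.53 CPM in shIGF2BP3 against 5.72 to 6.17 CPM in shControl. Leukocyte markers, with CD3E, LYZ and HLA-DRA at 0, and epithelial markers summed to at most 14.9 CPM in any library. The part of these marker shifts in the results was not tested. In bulk RNA, fewer cells of a type and less RNA per cell cannot be told apart.

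Of the 56 Wnt genes, 40 had enough counts to be tested. After knockdown 18 fell, 7 rose and 15 did not pass the test, while 16 were too low to test. The genes that fell included the ligand WNT6, the receptors FZD2 and LGR5, CTNNB1 and the factors TCF7L1 and TCF7L2. The genes that rose included the receptor FZD8, the antagonists SFRP1, DKK2 and DKK3, and the ligand WNT2B. Lower calls made up 45% of the tested Wnt genes and higher calls 17.5%, so 62.5% passed in either direction. Among all 19767 tested genes 25.6% were lower and 25.9% higher, and 51.5% passed in either direction. The Wnt genes are all protein-coding, and protein-coding genes passed more often: of 14096 tested, 4405 were lower and 4183 higher. The median log2 fold change was -0.20 over the 40 genes and 0.01 over all tested genes. The median of the 40 genes stayed at -0.20 with WNT4 and WNT9A, at 0 in shIGF2BP3, set to their bound. It could not have moved, since both stay well below it. These shares are a description, and 5 of the 40 passed the low-count filter only through the group in which they were high, so they could hardly have failed to differ. Of the 40 genes, 32 had groups that did not overlap, as had 74.5% of all tested genes and 11283 of the 14096 tested protein-coding genes. A change of at least 2-fold was called for 15 of the 40 genes, 10 lower and 5 higher. Among all tested genes 19.5% passed that limit in either direction, and no such share was taken over protein-coding genes alone. The 15 include all 5 genes that passed the low-count filter only through the group in which they were high. These were WNT4, WNT8B, WNT9A and WNT11 among the lower genes and LGR6 among the higher ones. Without shControl replicate 2 the number of lower genes was 12 and of higher genes 8.

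**Figure D1:**
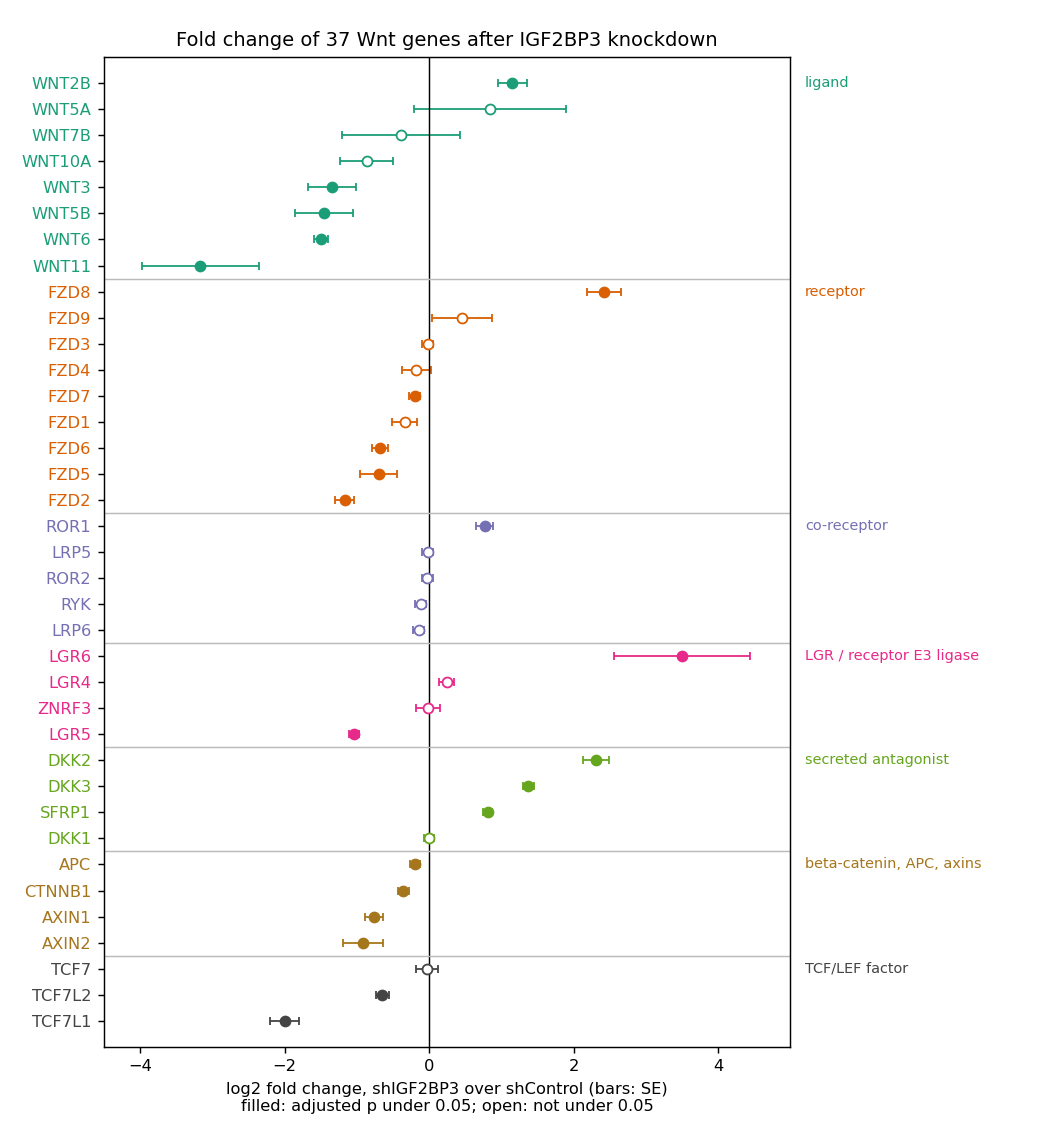
Log2 fold change (shIGF2BP3 over shControl, horizontal axis) of 37 Wnt genes grouped by role, with bars for the SE and filled points for an adjusted p under 0.05. WNT4, WNT8B and WNT9A, with 0 to 2 counts in shIGF2BP3, are left out. Ligands, beta-catenin with its scaffold genes and TCF/LEF factors lie mostly left of 0, while DKK2 (2.31), DKK3 (1.37) and SFRP1 (0.81) lie to the right.

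Promoters are shown for the gene with the smallest p among ligands, receptors and TCF/LEF factors. Each is the 250 bases before the transcript start of RefSeq on GRCh38.p14, written 5′ to 3′ on the gene's strand, with capitals marking each GC box (GGGCGG or its complement CCGCCC), a word bound by Sp1 family factors.
WNT6 (chr2:218859555-218859804, plus strand): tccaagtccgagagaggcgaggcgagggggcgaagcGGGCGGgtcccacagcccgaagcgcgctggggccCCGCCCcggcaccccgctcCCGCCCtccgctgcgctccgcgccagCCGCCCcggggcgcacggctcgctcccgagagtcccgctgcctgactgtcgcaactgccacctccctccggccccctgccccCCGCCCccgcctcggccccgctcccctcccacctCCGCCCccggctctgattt
FZD8 (chr10:35642297-35642546, minus strand): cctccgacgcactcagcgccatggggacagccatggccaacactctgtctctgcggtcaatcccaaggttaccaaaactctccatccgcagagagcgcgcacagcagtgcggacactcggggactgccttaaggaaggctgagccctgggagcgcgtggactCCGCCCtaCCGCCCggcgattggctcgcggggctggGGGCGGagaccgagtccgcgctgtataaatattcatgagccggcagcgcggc
TCF7L1 (chr2:85133142-85133391, plus strand): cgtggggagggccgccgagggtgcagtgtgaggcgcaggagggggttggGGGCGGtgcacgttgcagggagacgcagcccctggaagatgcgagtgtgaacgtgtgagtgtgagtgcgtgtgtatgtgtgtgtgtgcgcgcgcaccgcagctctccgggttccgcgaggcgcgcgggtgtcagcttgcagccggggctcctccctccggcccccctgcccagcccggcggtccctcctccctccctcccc
The windows held 6, 3 and 1 GC boxes and were 79.2%, 65.2% and 72.0% G or C for WNT6, FZD8 and TCF7L1, so the gene that rose and the genes that fell all had the word. RefSeq promoters were matched for 40 of the 56 genes, in 50 entries. A GC box stood in 34 of these entries (68.0%), against 53.7% of 22199 entries of protein-coding genes. The TCF/LEF word CTTTGAT, read on both strands, stood in none of the 50, and in 1.78% of the protein-coding entries. The E-box CACGTG, bound by MYC and MYCN, stood in 1 entry, that of APC, and in 7.37% of the protein-coding entries. None of the 3 words contains another, and they were chosen after the data were seen. The entries AXIN2, DKK2, DKK3, DKK4, FZD2, FZD3, FZD6, FZD7, FZD10, LGR5, LRP6, SFRP1, WNT7B, WNT10B, WNT11 and ZNRF3 were not matched.

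Of the 19 ligands 11 were tested, of which 7 fell, 1 rose and 3 did not pass. Of the 7 that fell, 4 (WNT4, WNT8B, WNT9A and WNT11) passed the low-count filter only through shControl, where they are high, so their direction was fixed by that filter. WNT6, a ligand known in the chick for its part in neural crest formation, had 23.8 and 22.5 CPM in shIGF2BP3, against 61.5 and 68.9 CPM in shControl. The groups were far apart, with WNT6 at 23.1 ± 0.971 CPM in shIGF2BP3 and 65.2 ± 5.21 CPM in shControl (SD, n = 2 each). It passed the test (log2 -1.50, SE 0.10, edgeR adjusted p = 1.28e-09). The gene (ENSG00000115596) is at chr2:218859821-218874233 of GRCh38, plus strand. Per kilobase of merged exon length, the summed ligand level was 16.2 and 15.3 CPM per kb in shIGF2BP3, against 40 and 44.5 CPM per kb in shControl. WNT6 alone made up 86.0% to 86.3% of that sum in shIGF2BP3 and 90.4% to 90.9% in shControl.

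WNT2B rose, with 10.2 and 13.5 CPM in shIGF2BP3 against 5.61 and 5.08 CPM in shControl (log2 1.15, SE 0.20, edgeR adjusted p = 0.000127). It was the only tested ligand above the threshold in that direction, and its exons overlap those of ST7L on the opposite strand, which had 834 and 615 counts in shIGF2BP3 against 491 and 618 in shControl. Strand use in counting is not given in the sources used here, so reads of such pairs cannot be told apart. WNT3, a canonical ligand, had 1.31 and 1.39 CPM in shIGF2BP3 against 3.34 and 3.48 CPM in shControl (log2 -1.34, SE 0.33, edgeR adjusted p = 0.00241). WNT5B, mostly studied in beta-catenin-independent signalling, had 0.988 and 0.729 CPM in shIGF2BP3 against 2.04 and 2.65 CPM in shControl. It fell by 1.46 on the log2 scale (SE 0.41, edgeR adjusted p = 0.00605), and the call ended without shIGF2BP3 replicate 2 (edgeR adjusted p = 0.0558) and without shControl replicate 2 (edgeR adjusted p = 0.0546).

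The other 4 lower ligands passed the filter through the shControl libraries alone and stood at few counts. WNT4 had 0 counts in both shIGF2BP3 libraries and 11 and 17 counts in shControl, at least 4.43-fold lower against a floor of 3 counts per library (edgeR adjusted p = 0.0063). WNT9A had 0 counts in both shIGF2BP3 libraries and 19 and 18 in shControl, at least 5.96-fold lower (edgeR adjusted p = 0.00249). WNT8B had 0 and 2 counts in shIGF2BP3 against 28 and 16 in shControl, a ratio of 0.0475 (95% exact interval 0.00558 to 0.182, counting error only; edgeR adjusted p = 0.00339). WNT11, a ligand of the planar polarity branch, had 8 and 0 counts in shIGF2BP3 against 49 and 28 in shControl (log2 -3.17, SE 0.81, edgeR adjusted p = 0.00309). The groups of these 4 genes did not overlap. That was all but fixed in advance, since both shControl libraries passed the filter cut and neither shIGF2BP3 library did. The fitted WNT11 value was -8.24 without shIGF2BP3 replicate 1, where the remaining library holds 0 counts, and -2.21 without shIGF2BP3 replicate 2. That of WNT8B, -4.24 with all libraries, was -3.30 without shIGF2BP3 replicate 1 and -7.46 without shIGF2BP3 replicate 2, where the remaining library holds 0 counts.

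WNT10A, with 1.80 and 1.24 CPM in shIGF2BP3 against 2.08 and 3.39 CPM in shControl, did not pass (log2 -0.86, SE 0.37, edgeR adjusted p = 0.0599). It passed under the replicate block (edgeR adjusted p = 0.0496) and without shControl replicate 1 (edgeR adjusted p = 0.0161). WNT5A, the best studied ligand of ROR receptors, had 3 and 23 counts in shIGF2BP3 against 0 and 15 in shControl, so replicates differed more than groups (log2 0.85, SE 1.05). Without shControl replicate 2, which leaves a single shControl library at 0 counts, WNT5A passed at a fitted 6.69 (edgeR adjusted p = 0.0497). WNT7B had 6 and 10 counts in shIGF2BP3 against 4 and 18 in shControl (log2 -0.39, SE 0.82). The untested ligands were WNT1, WNT7A and WNT8A, at 0 counts in every library, and WNT2, WNT3A, WNT9B, WNT10B and WNT16, with at most 12 counts in any library. The 12 counts were those of WNT2 in shIGF2BP3 replicate 1, with 0 in the other libraries. Where a library had 0 counts, its level could still have reached 3 counts, which is 0.0958 to 0.111 CPM depending on the library and covers counting error only.

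**Figure D2:**
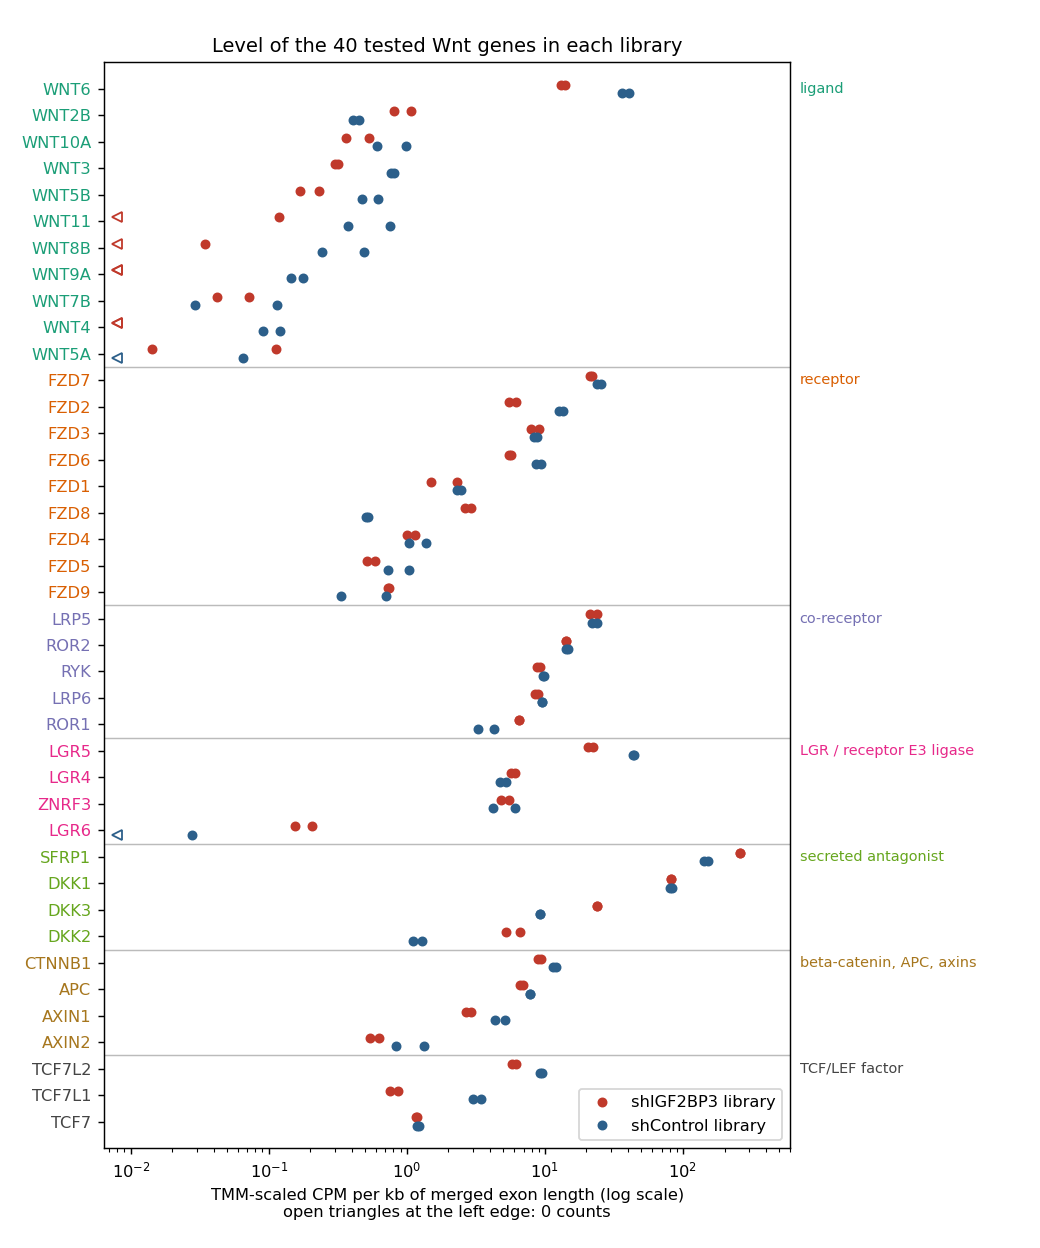
TMM-scaled CPM per kilobase of merged exon length (log axis) of the 40 tested Wnt genes in each library, shIGF2BP3 in red drawn above shControl in blue, grouped by role and ordered by mean level. Open triangles at the left edge mark libraries with 0 counts. SFRP1 is the highest gene in every library, and WNT6 stands above the other ligands in every library.

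Of the 10 Frizzled receptors 9 were tested, of which 4 fell, 1 rose and 4 did not pass, with a median log2 fold change of -0.20. FZD8 rose. It had 10.6 and 11.8 CPM in shIGF2BP3, against 2.12 and 2.04 CPM in shControl (11.2 ± 0.837 and 2.08 ± 0.0511 CPM, SD, n = 2 each). All shIGF2BP3 values lay above all shControl values, with a log2 fold change of 2.42 (SE 0.24, edgeR adjusted p = 1.22e-07). FZD8 (ENSG00000177283) is at chr10:35638249-35642278 of GRCh38, minus strand.

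FZD2 moved the other way, with 13.0 and 11.5 CPM in shIGF2BP3 against 28.3 and 26.9 CPM in shControl (log2 -1.17, SE 0.13, edgeR adjusted p = 8.26e-07). FZD6, a receptor known for its role in planar polarity, had 23.1 and 22.4 CPM in shIGF2BP3 against 35.0 and 37.8 CPM in shControl (log2 -0.68, SE 0.11, edgeR adjusted p = 4.81e-05). Neither pair of groups overlapped. FZD7 held the highest level per kilobase of the receptors, 21.5 CPM per kb in shIGF2BP3 and 24.7 CPM per kb in shControl. Its difference was small (84.1 and 82.2 CPM in shIGF2BP3, 92.5 and 98.05 CPM in shControl; log2 -0.20, SE 0.08, edgeR adjusted p = 0.0399). The FZD7 call ended without shIGF2BP3 replicate 1 (log2 -0.21), without shIGF2BP3 replicate 2 (-0.18) and without shControl replicate 2 (-0.17). With all libraries it also ended under library size scaling (edgeR adjusted p = 0.220), no low-count filter (0.0914) and the replicate block (0.0617). FZD5 had 3.46 and 3.94 CPM in shIGF2BP3 against 4.90 and 6.96 CPM in shControl (log2 -0.70, SE 0.25, edgeR adjusted p = 0.0288). Its call ended without shIGF2BP3 replicate 1 (log2 -0.60), without shIGF2BP3 replicate 2 (-0.79) and without shControl replicate 2 (-0.43). With all libraries it also ended under DESeq2 (DESeq2 adjusted p = 0.0908), library size scaling (edgeR adjusted p = 0.0583) and no low-count filter (edgeR adjusted p = 0.0928).

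FZD3 (log2 -0.02, SE 0.08), FZD4 (-0.18, SE 0.20), FZD1 (-0.34, SE 0.18) and FZD9 (0.46, SE 0.42) did not pass. FZD3 is a main axon guidance receptor of the family, and it stood at 109.0 and 124.9 CPM in shIGF2BP3 against 121.6 and 115.4 CPM in shControl, with overlapping groups. FZD1 passed without shIGF2BP3 replicate 2 (log2 -0.68, edgeR adjusted p = 0.00692). FZD4 shares exon sequence with PRSS23 on the opposite strand, whose counts were 1023 and 815 in shIGF2BP3 against 290 and 318 in shControl. FZD10 had 0 counts in every library.

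The 5 co-receptors were tested, of which 1 rose and 4 did not pass. ROR1, a receptor tyrosine kinase-like protein that binds WNT5A, had 43.3 and 43.5 CPM in shIGF2BP3 against 22.0 and 28.6 CPM in shControl. Its groups did not overlap, with a log2 fold change of 0.77 (SE 0.12, edgeR adjusted p = 2.81e-05). The paralog ROR2 had 82.8 and 82.2 CPM in shIGF2BP3 and 83.0 and 85.2 CPM in shControl (log2 -0.03, SE 0.08). LRP5 stood at -0.02 (SE 0.08) on the log2 scale, with overlapping groups. LRP6 (-0.14, SE 0.07) and RYK (-0.12, SE 0.08) were lower in both shIGF2BP3 libraries than in either shControl library, without passing.

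LGR5, a receptor for R-spondins and itself a target of beta-catenin in many tissues, fell to 107.8 and 116.3 CPM in shIGF2BP3, against 233.1 and 228.8 CPM in shControl (112.1 ± 6.02 and 230.9 ± 3.07 CPM, SD, n = 2 each). It fell by 1.04 on the log2 scale (SE 0.07, edgeR adjusted p = 9.47e-10). LGR5 (ENSG00000139292) is at chr12:71439770-71586310 of GRCh38, plus strand. Its paralog LGR6 rose, with 20 and 26 counts in shIGF2BP3 against 0 and 4 in shControl (log2 3.50, SE 0.94, edgeR adjusted p = 0.00414). LGR6 passed the filter through shIGF2BP3 alone, and its fitted value was 2.65 without shControl replicate 1 (edgeR adjusted p = 0.0414) and 7.51 without shControl replicate 2, where the remaining library holds 0 counts. LGR4, with 36.0 and 38.5 CPM in shIGF2BP3 against 33.1 and 29.8 CPM in shControl, did not pass (log2 0.24, SE 0.11, edgeR adjusted p = 0.0611), but did without shControl replicate 1 (edgeR adjusted p = 0.0403). ZNRF3, a ubiquitin ligase that removes Frizzled receptors from the cell surface, varied more within shControl (29.3 and 42.5 CPM) than between groups (33.4 and 38.2 CPM in shIGF2BP3; log2 -0.02, SE 0.17). The other ligase of this kind, RNF43, had 1 count in all, in shControl replicate 1, and was not tested.

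Of the 9 secreted antagonists 4 were tested, of which 3 rose and 1 did not pass. The symbol rule does not take in FRZB, also called SFRP3, which fell (log2 -3.11, SE 0.14). SFRP1, which binds Wnt proteins in the extracellular space, had 1224 and 1233 CPM in shIGF2BP3 against 725.1 and 677.6 CPM in shControl. It rose by 0.81 on the log2 scale (SE 0.06, edgeR adjusted p = 3.76e-09). SFRP1 was the highest of the 56 genes per kilobase, at 258.0 CPM per kb in shIGF2BP3 and 147.3 CPM per kb in shControl. DKK3, a divergent Dickkopf whose binding to LRP6 is disputed, had 120.9 and 120.1 CPM in shIGF2BP3 against 46.7 and 46.4 CPM in shControl (log2 1.37, SE 0.08, edgeR adjusted p = 1.32e-10). DKK2, which can bind LRP6, had 22.7 and 28.6 CPM in shIGF2BP3 against 5.57 and 4.82 CPM in shControl (log2 2.31, SE 0.18, edgeR adjusted p = 5.76e-09). None of these 3 pairs of groups overlapped.

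DKK1, the classical LRP5 and LRP6 antagonist, stood apart from its paralogs. It had 179.6 and 181.5 CPM in shIGF2BP3 and 183.9 and 177.6 CPM in shControl, with overlapping groups (log2 -0.00, SE 0.07). Per kilobase it was the second gene of the set, at 81.9 CPM per kb in each group. The summed level of the 9 antagonists was 368 and 372 CPM per kb in shIGF2BP3 against 246 and 233 CPM per kb in shControl. SFRP1 made up 69.7% to 69.9% of that sum in shIGF2BP3 and 61% to 61.9% in shControl. FRZB is not in the sum. DKK4, SFRP2 and WIF1 had 0 counts in every library, and SFRP4 and SFRP5 at most 5. SFRP1 (ENSG00000104332) lies on chromosome 8, DKK3 (ENSG00000050165) on chromosome 11 and DKK2 (ENSG00000155011) on chromosome 4.

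**Figure D3:**
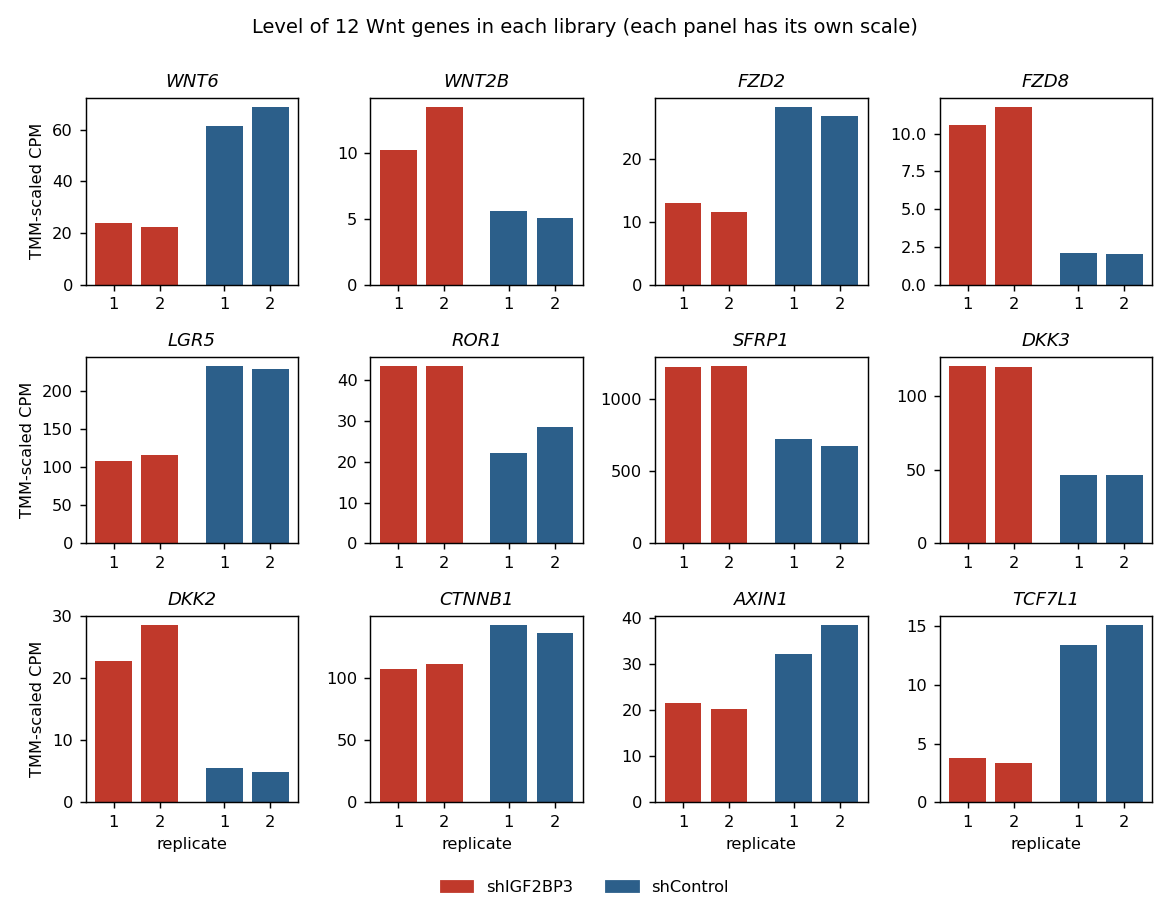
TMM-scaled CPM of 12 Wnt genes in each library, shIGF2BP3 (red) left of shControl (blue), 1 bar per library and a scale from 0 in each panel. WNT2B, FZD8, ROR1, SFRP1, DKK3 and DKK2 are higher in both shIGF2BP3 libraries, and the other 6 genes are lower in both.

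Beta-catenin and the 3 scaffold genes of its destruction complex were tested, and the 4 fell. CTNNB1 had 106.7 and 110.8 CPM in shIGF2BP3 against 142.5 and 135.7 CPM in shControl (log2 -0.36, SE 0.07, edgeR adjusted p = 0.000448). AXIN1, the constitutive scaffold, had 21.7 and 20.2 CPM in shIGF2BP3 against 32.4 and 38.7 CPM in shControl (log2 -0.77, SE 0.12, edgeR adjusted p = 3.83e-05). The groups of both genes were separate. AXIN2, a scaffold that beta-catenin itself induces and a common readout of the pathway, had 3.28 and 2.81 CPM in shIGF2BP3 against 4.34 and 6.996 CPM in shControl (log2 -0.92, SE 0.28, edgeR adjusted p = 0.0113). The AXIN2 call ended without either of 2 libraries: without shControl replicate 2 the log2 fold change was -0.53, and without shIGF2BP3 replicate 2 it was -0.81. With all libraries it also ended under no low-count filter (edgeR adjusted p = 0.0732). APC had 82.7 and 86.0 CPM in shIGF2BP3 against 96.8 and 96.4 CPM in shControl (log2 -0.20, SE 0.07, edgeR adjusted p = 0.0386). Its call ended without any 1 of the 4 libraries (log2 between -0.22 and -0.16). With all libraries it also ended under library size scaling (edgeR adjusted p = 0.210), no low-count filter (0.0706) and the replicate block (0.0620). RNA levels do not measure beta-catenin protein, which is regulated mainly by its breakdown.

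Of the 4 TCF/LEF factors 3 were tested, of which 2 fell and 1 did not pass. TCF7L1, known as a repressor of Wnt targets in the absence of signal, had 3.81 and 3.32 CPM in shIGF2BP3 against 13.4 and 15.1 CPM in shControl (log2 -2.0, SE 0.20, edgeR adjusted p = 1.97e-07). TCF7L1 (ENSG00000152284) is at chr2:85133410-85310388 of GRCh38, plus strand. TCF7L2 had 39.2 and 41.3 CPM in shIGF2BP3 against 63.8 and 62.5 CPM in shControl (log2 -0.65, SE 0.09, edgeR adjusted p = 8.13e-06). It was the highest of the family per kilobase, at 5.98 CPM per kb in shIGF2BP3 and 9.37 CPM per kb in shControl. TCF7 had 11.65 and 11.99 CPM in shIGF2BP3 and 11.8 and 12.3 CPM in shControl (log2 -0.03, SE 0.16), and its exons overlap those of the more abundant SKP1 on the opposite strand (5316 to 5727 counts in shIGF2BP3, 6812 to 7530 in shControl). LEF1 had 10 counts in shControl replicate 1 and 0 in every other library, too few to test.

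Other genes of the pathway were read from 8 lists, which share a few genes. Their counts are a description, to be read beside all tested genes, of which 51.5% passed. The list genes are all protein-coding, so protein-coding genes are the closer comparison. Those passed more often: of 14096 tested, 4405 fell and 4183 rose. Among R-spondins and ligand secretion genes 3 rose, 3 fell and 3 of 9 were too low to test, and the number that rose was 1 without shIGF2BP3 replicate 2 and 1 without the low-count filter. PORCN, the enzyme that adds the lipid to Wnt proteins, had 21.6 and 21.6 CPM in shIGF2BP3 against 11.3 and 11.2 CPM in shControl (log2 0.94, SE 0.14, edgeR adjusted p = 1.8e-05). WLS, which carries Wnt proteins to the cell surface, moved the other way, with 21.3 and 23.5 CPM in shIGF2BP3 against 30.6 and 34.3 CPM in shControl (log2 -0.54, SE 0.12, edgeR adjusted p = 0.000848). RSPO4 was low throughout, at 1.06 and 1.09 CPM in shIGF2BP3 and 2.75 and 2.91 CPM in shControl (log2 -1.39, SE 0.36, edgeR adjusted p = 0.00358). Of 9 other secreted antagonists 2 rose, 1 fell, 2 did not pass and 4 were not tested. FRZB, a relative of the SFRP proteins also called SFRP3, went against SFRP1, with 5.54 and 6.42 CPM in shIGF2BP3 against 55.4 and 48.3 CPM in shControl (log2 -3.11, SE 0.14, edgeR adjusted p = 7.44e-12). SERPINF1 and IGFBP4 rose by 0.30 each on the log2 scale, but SERPINF1 did not pass without shControl replicate 2 (edgeR adjusted p = 0.0780), nor IGFBP4 without shIGF2BP3 replicate 1 (edgeR adjusted p = 0.0889), where the list had 1 higher and 2 lower genes.

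Of 14 other co-receptors and membrane partners 5 fell, 2 rose, 5 did not pass and 2 were not tested. KREMEN1, a receptor through which Dickkopf proteins remove LRP6, had 3.0 and 3.86 CPM in shIGF2BP3 against 30.0 and 43.3 CPM in shControl (log2 -3.43, SE 0.24, edgeR adjusted p = 3.12e-07). LRP4, a relative of LRP5, fell by 1.23 on the log2 scale and the glypican GPC3 stood at -1.99, with groups that did not overlap. Of 11 Dishevelled and cytoplasmic regulators 5 rose, 2 fell, 3 did not pass and 1 was not tested. DACT1, a Dishevelled-binding protein, had 6.0 and 8.02 CPM in shIGF2BP3 against 0.520 and 0.671 CPM in shControl (log2 3.53, SE 0.36, edgeR adjusted p = 2.49e-07). DIXDC1 stood at 0.68 and CXXC4, which binds Dishevelled, at -0.90 on the log2 scale, both past the same test.

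Among 19 genes of the destruction complex and beta-catenin turnover 7 fell, 3 rose, 8 did not pass and 1 was not tested. TNKS, the tankyrase that marks axins for breakdown, had 105.3 and 104.6 CPM in shIGF2BP3 against 182.6 and 181.7 CPM in shControl (log2 -0.80, SE 0.07, edgeR adjusted p = 2.67e-08). CSNK1D, a casein kinase, passed at -0.63 and CUL1, a ubiquitin ligase scaffold, at -0.41 on the log2 scale, and the median of the list was -0.03. Of 21 nuclear cofactors of beta-catenin 9 fell, 5 rose while 7 missed the threshold (list median -0.07), and scaling by library size alone gave 8 higher. The co-repressor TLE4 passed at -1.33 and CTBP2 at -0.78, while HIPK2, a kinase that acts on TCF factors, rose by 0.94 on the log2 scale. Of 19 planar cell polarity genes 6 fell, 2 rose, 10 did not pass and 1 was not tested. The core polarity genes VANGL2 (37.3 and 37.6 CPM in shIGF2BP3, 100.2 and 93.5 CPM in shControl) and CELSR2 (23.8 and 22.8 CPM in shIGF2BP3, 60.6 and 63.5 CPM in shControl) passed at -1.37 and -1.41, and RAC1 at -0.81 on the log2 scale. The counts of higher planar polarity genes and of lower Dishevelled regulators became 1 each without shIGF2BP3 replicate 1 and without shIGF2BP3 replicate 2, and that of lower Dishevelled regulators also without shControl replicate 1.

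Of 25 genes described elsewhere as beta-catenin targets 10 rose, 6 fell, 4 did not pass and 5 were not tested, with a median log2 fold change of 0.68. ID2, an inhibitor of basic helix-loop-helix factors that BMP signals also induce, had 254.7 and 267.0 CPM in shIGF2BP3 against 78.4 and 67.6 CPM in shControl (log2 1.84, SE 0.08, edgeR adjusted p = 3.33e-12). NRCAM, a neuronal adhesion molecule, rose by 1.12 and TBX3, a T-box repressor, by 0.89 on the log2 scale, with groups that did not overlap. These 3 rose, but 6 genes of the list fell, as did AXIN2 and LGR5, targets among the 56 genes. The AXIN2 call was lost when some single libraries were left out. Most genes of this list are also under the control of other pathways.

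**Figure D4:**
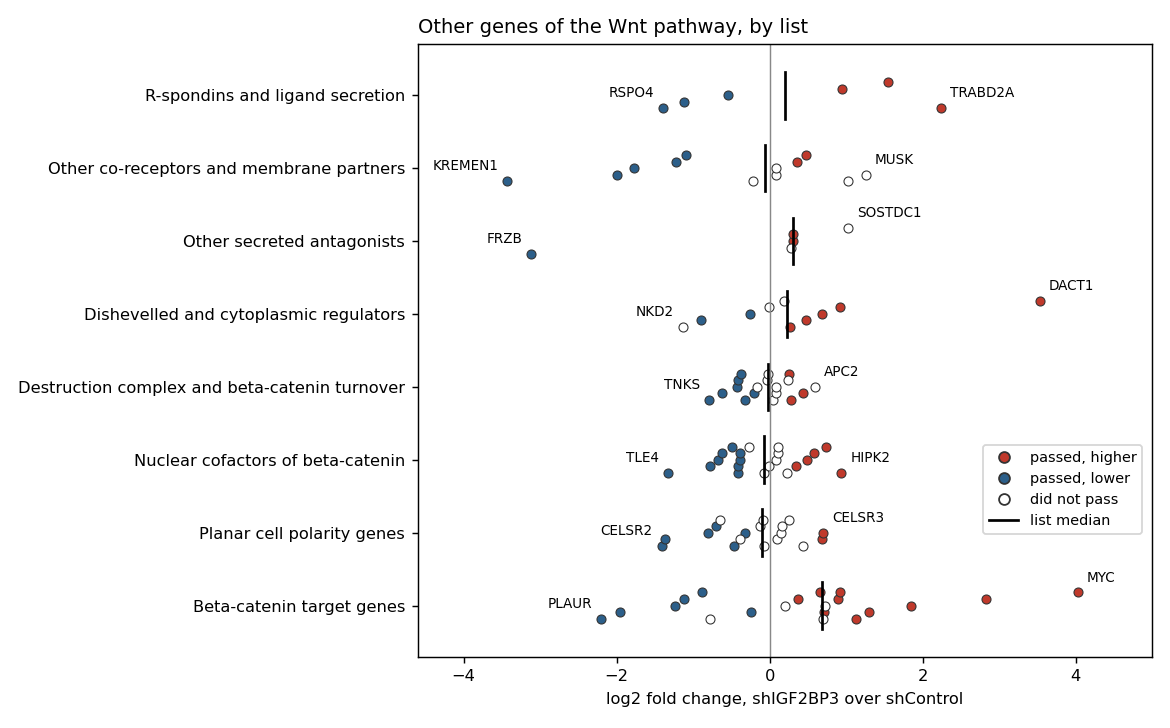
Log2 fold change (shIGF2BP3 over shControl) of the tested genes in 8 other Wnt pathway lists, 1 point per gene, red for genes that passed higher, blue for genes that passed lower, white for the rest, with a black bar at each list median and the lowest and highest gene named. Medians lie between -0.10 and 0.68, and single genes reach -3.43 (KREMEN1) and 4.02 (MYC). The MYC value rests on few shControl counts, 11 and 6, against 113 and 155 in shIGF2BP3.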

How the data were processed

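The authors deposited whole-number counts for each Ensembl gene and library. The submitters' processing notes name HISAT2 2.2.0, StringTie and hg38, and give no order or settings. No annotation release, strand setting or counting rule was given in the sources used here, and StringTie counts would be rounded estimates from coverage. A table of gene names gave 56105 symbols. GENCODE release 29 gave 486 more, with gene types, GRCh38 coordinates and merged exon lengths, and 7661 rows had no symbol.

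Tests used edgeR 4.0.16 (R 4.3.3) over the genes that filterByExpr kept (minimum count 10), with TMM scaling, the robust quasi-likelihood test and Benjamini-Hochberg adjustment at 0.05. The SE came from the fold change and its F statistic. In simulated counts (19264 genes) the test called 16 of 67 genes made 1.5-fold different, 60 of 67 at 2-fold and 66 of 66 at 4-fold. There were 4 false calls. Only these genes were changed, all above a minimum level, and all genes had 1 common spread (coefficient of variation 12.62%). In the deposited data 51.5% of genes passed, which makes the adjusted threshold less strict there.

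The Wnt genes and lists were chosen with earlier results of these data known. By the rule, all 56 Wnt genes are accounted for, those that passed with values per library, and each other list gives its 3 smallest p. PRSS23, ST7L and SKP1 (shared exon sequence) fall outside that rule and were chosen after their values were seen. So were the extremes labelled in the plot of the lists, MYC and TRABD2A among them. Alternatives were DESeq2 1.42.0, limma 3.58.1 voom, other scalings, no filter, a replicate block, an older edgeR fit and leaving out each library. Replicates differed by more than sampling noise (chi-square per degree of freedom 7.26 in shIGF2BP3 and 8.43 in shControl).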

Additional observations from a re-analysis of the deposited data

How the results depend on the processing

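IGF2BP3 stayed past the test under each alternative, between -2.39 and -2.20 on the log2 scale without single libraries. The number of Wnt genes called was 7 to 8 higher and 12 to 18 lower without single libraries, 7 and 14 without a low-count filter, 8 and 15 with library size scaling, and 7 and 17 with DESeq2. All genes called numbered 8800 to 9442 without single libraries, 8869 with DESeq2 and 8757 without a filter. Library size scaling moved the median of all genes to 0.09. Fits without a library assume that the lone library varies like the other group. Of 25 called Wnt genes 20 kept the call under every alternative that gave a value; APC, AXIN2, FZD5, FZD7 and WNT5B did not. WNT4 had no value without shControl replicate 2. With the replicate block 7 Wnt genes were higher and 17 lower (10509 genes in all). It ended the calls of APC (adjusted p = 0.0620) and FZD7 (adjusted p = 0.0617) and gave one to WNT10A. Shared replicate numbers were not taken to pair libraries: the replicate differences of the groups had a correlation of 0.003 across genes. The older edgeR fit, added after the data were seen, gave 7 and 18. Of 24 genes named from the lists, 0 reversed. A gene without a call may still have changed. The simulation, in which few genes differed, cannot give the share of 1.5-fold changes missed in these data. Smaller changes did pass here, such as CTNNB1 at -0.36 on the log2 scale.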

Other observations

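A number of Wnt genes lie next to each other in the genome. WNT6 and WNT10A are on the plus strand of chromosome 2 with 6129 bases between them. WNT6 fell (log2 -1.50) and WNT10A, at a far lower level, stood at -0.86 without passing. WNT3 and WNT9B start 46 bases apart in opposite directions on chromosome 17. WNT3 fell (log2 -1.34), while WNT9B had 4 and 0 counts in shIGF2BP3 and 0 in both shControl libraries. WNT9A and WNT3A are 59152 bases apart on chromosome 1, with WNT9A at 0 counts in shIGF2BP3 and WNT3A at 4 and 0 counts in shIGF2BP3, against 0 and 5 in shControl. WNT10B and WNT1, on chromosome 12, were both too low to test.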
